A study of Mus musculus with 10 samples.

Results

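Chondrolectin (Chodl) and its homolog layilin (Layn) were followed through lumbar motor neuron pools of 10 mice, as the 2 rows with these symbols among 51912 genes. HSA-NRTN animals make neurturin, a GDNF family ligand, in muscle fibres from the human skeletal actin promoter, so the transgene is expressed outside the captured neurons. The 5 HSA-NRTN mice and their 5 wild-type littermates were 3 females and 2 males each, with no further allele, treatment or age given in the sources used here. Each library is 1 animal, a pool of about 50 laser-captured neurons with a visible nucleolus and a soma above a size minimum, amplified as whole polyadenylated transcripts by Smart-seq2. Depth was 1875971 to 6641695 counts on genes, with 14090 to 19675 genes detected. Replicate numbers are names only and pair no animals.

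Chodl and Layn are type I membrane proteins with a single C-type lectin domain outside the cell. Chodl marks fast motor neurons in the mouse spinal cord, and its zebrafish ortholog takes part in the outgrowth of motor axons. Layilin is a receptor for hyaluronan, a sugar chain of the extracellular matrix, and its cytoplasmic tail binds talin, merlin and radixin, which link membrane receptors to actin. Both genes were chosen by their levels in HSA-NRTN against wild-type libraries, with earlier results known. Their genotype differences are therefore given as descriptions, without a test, while the comparisons of females with males were not used in the choice and are tested.

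Chodl (ENSMUSG00000022860) lies on chromosome 16 of GRCm38, from 78930948 to 78951733 on the plus strand, and no other gene of GENCODE M21 overlaps it. Layn (ENSMUSG00000060594) lies on chromosome 9, from 51054640 to 51077094 on the minus strand. It overlaps in part the span of Btg4 on the other strand (51060901 to 51119875), with which it shares 0 exon bases. Btg4 was counted 4 times over all HSA-NRTN pools and 0 times over all wild-type pools. The 250 bases before each start, from RefSeq on GRCm38.p6, are shown because both genes were lower in HSA-NRTN pools, with every match to 7 short motifs in capitals. The Chodl window is chr16:78930698-78930947 on the plus strand and the Layn window is chr9:51077095-51077344 on the minus strand, both read 5′ to 3′ towards the gene.
Chodl: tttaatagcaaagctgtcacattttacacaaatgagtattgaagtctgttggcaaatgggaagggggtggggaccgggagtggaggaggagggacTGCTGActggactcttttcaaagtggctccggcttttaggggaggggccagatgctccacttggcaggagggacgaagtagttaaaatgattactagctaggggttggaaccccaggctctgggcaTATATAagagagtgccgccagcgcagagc
Layn: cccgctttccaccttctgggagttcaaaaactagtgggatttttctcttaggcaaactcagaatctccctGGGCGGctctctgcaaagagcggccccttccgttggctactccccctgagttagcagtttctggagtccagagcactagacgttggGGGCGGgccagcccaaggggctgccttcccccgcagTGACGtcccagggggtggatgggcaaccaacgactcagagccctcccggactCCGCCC

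The motifs were searched on both strands of 32851 windows of this length. The Chodl window held TATATA, a run resembling the box bound by TBP, at 29 to 24 bases before the start, as did 5.25% of all windows somewhere in their length. It also held TGCTGA, part of the element bound by Maf factors, at 155 to 150 bases before the start (16.1% of windows). The Layn window held GGGCGG, the core of a GC box, at 180 to 175 and 94 to 89 bases before the start and on the opposite strand at 6 to 1 (32.7% of windows). It also held TGACG, part of a cyclic AMP response element, at 58 to 54 bases (17.8% of windows). None of these matches overlapped. TATAAA (12.4% of windows), TAATTA, a homeodomain core (4.84%), and AAGGTCA, a nuclear receptor half-site of the kind bound by estrogen-related receptors (4.08%), were found in neither window. The windows shared none of the motifs they held, and G or C made up 52.0% of the Chodl window and 61.2% of the Layn window, against a median of 52.4% over all windows.

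Chodl was 3.06-fold lower in HSA-NRTN pools. Its level, in CPM (counts scaled to library size, with TMM factors), was 408, 463, 1011, 467 and 617 CPM in HSA-NRTN replicates 1 to 5, against 1937, 1816, 1678, 1901 and 1741 CPM in wild-type replicates 1 to 5. All HSA-NRTN pools lay below all wild-type pools, and the nearest pools of the 2 genotypes were 667 CPM apart. HSA-NRTN replicate 3, a female, was the highest of its group. HSA-NRTN pools averaged 593 ± 246.1 CPM and wild-type pools 1814 ± 108 CPM (SD, n = 5 each). The log2 fold change was -1.61 (SE 0.25). The authors' deposited table gives -1.52 (SE 0.22). In a bulk pool, fewer cells that carry a transcript and less of it per cell cannot be told apart. Of 11630 genes tested, 70 (0.602%) lay with all HSA-NRTN below all wild-type libraries, and at an unadjusted p under 0.05 there were 282 lower genes (2.42%). Nothing is read from these shares, since the choice of both genes used this contrast.

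Layn was 2.71-fold lower on average, but its HSA-NRTN pools fell into separate levels by sex. It was at 101 and 96.2 CPM in the HSA-NRTN males, replicates 1 and 2, and at 21.6, 15.8 and 10.1 CPM in the HSA-NRTN females, replicates 3 to 5, against 112, 135, 131, 172 and 112 CPM in wild-type replicates 1 to 5. The HSA-NRTN males stood just below the wild-type range, and the HSA-NRTN females stood far below every other pool. The raw counts behind these values were 339 and 178 in the HSA-NRTN males, 41 to 118 in the HSA-NRTN females, and 477 to 997 in wild-type pools. Some library measures separated the same HSA-NRTN animals, and others did not. The males had 3257700 and 1875971 gene counts, against 4101340 to 6641695 in the females. In the males 23.4% and 13.5% of the HTSeq tally, unassigned entries and spike-ins included, fell on genes and 6.97% and 11.9% of gene counts were mitochondrial, against 24.8% to 42.3% and 4.15% to 6.24% in the females. Motor neuron markers summed to 5652 and 4638 CPM in the males and to 3433 to 4549 CPM in the females. Genes detected overlapped, at 16255 and 14858 in the males and 15975 to 19675 in the females. So did spike-ins, at 2.17% and 0.0336% of spike-in and gene counts in the males and 0.267% to 1.94% in the females. The part of these measures in the Layn split was not tested. HSA-NRTN pools averaged 48.9 ± 45.4 CPM and wild-type pools 132 ± 24.4 CPM (SD, n = 5 each). The log2 fold change was -1.45 (SE 0.53), and the authors' deposited table gives -1.42 (SE 0.35).

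**Figure D1:**
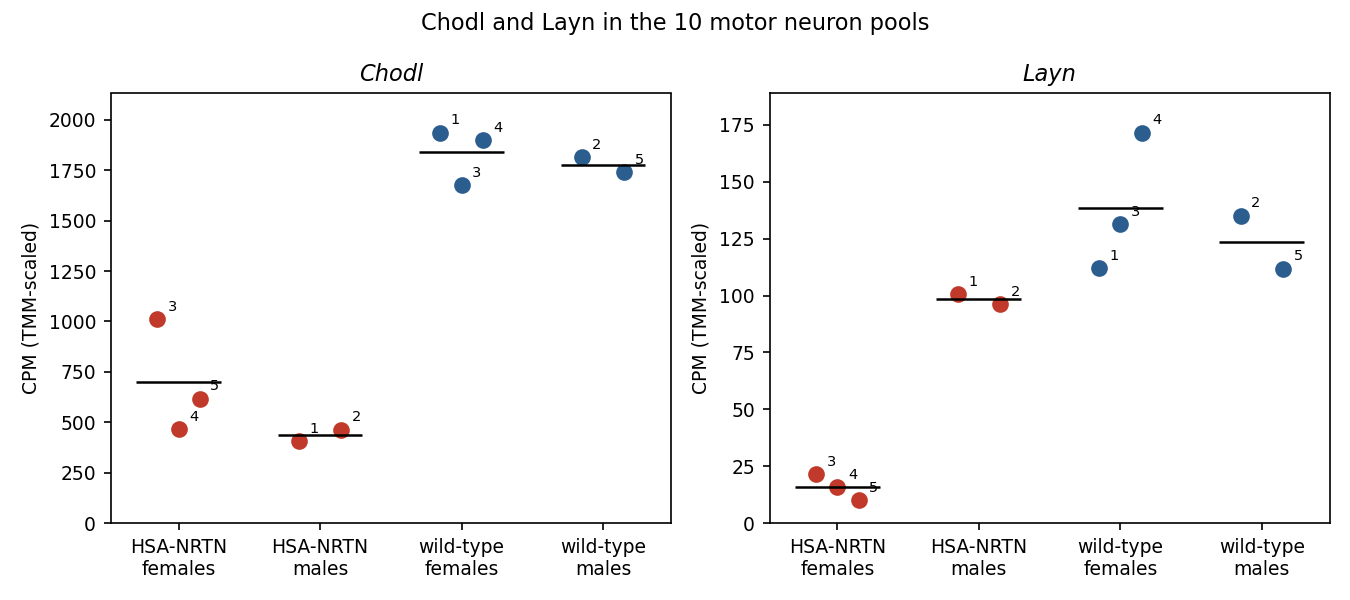
Level of Chodl (left) and Layn (right) in each library, in CPM scaled by TMM on a linear axis from 0, by genotype and sex; points are animals numbered by replicate and bars are means. Chodl lies at 408 to 1011 CPM in HSA-NRTN and at 1678 to 1937 CPM in wild-type pools, while Layn is at 10.1 to 21.6 CPM in the HSA-NRTN females and at 96.2 CPM or above in every other pool.

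Within the sexes, Chodl was lower in HSA-NRTN pools of both, at 698 ± 281 against 1838 ± 140 CPM in females (SD, n = 3 each) and at 435 ± 39.2 against 1778 ± 53.3 CPM in males (SD, n = 2 each). The log2 differences between genotypes were -1.40 (SE 0.29) in females and -2.03 (SE 0.36) in males. For Layn the same differences were -3.12 (SE 0.36) in females, from 15.8 ± 5.75 CPM in HSA-NRTN and 138 ± 30.4 CPM in wild-type females, and -0.33 (SE 0.41) in males, from 98.4 ± 3.07 CPM in HSA-NRTN and 123 ± 16.4 CPM in wild-type males. Layn in HSA-NRTN females was thus 8.73-fold below wild-type females, while in males the ratio of means was 1.26.

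The difference between the sexes was tested as a genotype by sex term over all 11630 genes. For Layn this term was -2.79 on the log2 scale (SE 0.54), and its unadjusted p of 0.000161 ranked 1 of 11630 genes, but it did not pass adjustment in edgeR's quasi-likelihood test (adjusted p = 0.922). In that test 0 genes (0.0%) passed, and 598 genes (5.14%) had an unadjusted p under 0.05. DESeq2 called 16 genes (0.101%), Layn among them (adjusted p = 0.00362), limma voom called 0, and edgeR with no filter beyond 1 count called 35 (0.134%), again with Layn (adjusted p = 0.0204). With 1 library left out the edgeR value for Layn ran from -3.07 to -2.55 and its adjusted p from 0.330 upwards. For Chodl the term was 0.63 (SE 0.45, adjusted p = 0.929). Of the 11630 genes, 134 (1.15%) had all HSA-NRTN females below the other 7 libraries, as Layn did.

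Averaged over genotype, females against males differed by a log2 fold change of 0.36 (SE 0.24) for Chodl, which did not pass (adjusted p = 0.599, edgeR). For Layn the sex difference was -1.34 (SE 0.48), with an unadjusted p of 0.0140 and an adjusted p of 0.399. Over all genes 1302 (11.2%) had an unadjusted p under 0.05 for sex, and 1 gene (0.0086%) passed, a count that was 176 without wild-type replicate 1 and 5 without HSA-NRTN replicate 3, 4 or 5 or wild-type replicate 3 or 4. DESeq2 called 225 genes for sex (1.77%) and limma voom 0. Within genotypes, the log2 difference of Layn between females and males was -2.63 (SE 0.38) in HSA-NRTN and 0.16 (SE 0.37) in wild-type pools. All HSA-NRTN females lay below all HSA-NRTN males for Layn, as for 1947 genes (16.7%). For Chodl it was 0.68 (SE 0.33) in HSA-NRTN and 0.05 (SE 0.32) in wild-type pools.

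The animal numbers in the labels form 2 runs, which are not said to mark litters or batches. In the first run, Chodl was at 408, 463 and 1011 CPM in HSA-NRTN pools and at 1937 CPM in the single wild-type pool. In the second run it was at 467 and 617 CPM in HSA-NRTN pools and at 1678 to 1901 CPM in 4 wild-type pools. Layn was at 101, 96.2 and 21.6 CPM in HSA-NRTN and 112 CPM in wild-type pools of the first run, and at 15.8 and 10.1 CPM in HSA-NRTN and 112 to 172 CPM in wild-type pools of the second. Both HSA-NRTN males belong to the first run, and the 21.6 CPM there is a female.

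Ratios within a library do not depend on how libraries are scaled. Chat encodes the enzyme that makes acetylcholine. For each read of Chat there were 3.64 to 10.3 reads of Chodl in HSA-NRTN and 17.1 to 26.9 in wild-type libraries. This is a description, since the choice of both genes used the same genotype values. For Layn there were 0.894 and 0.897 reads per Chat read in HSA-NRTN males, 0.0669 to 0.219 in HSA-NRTN females and 1.16 to 2.43 in wild-type libraries. Chat itself was at 98.5 to 151 CPM in HSA-NRTN and at 70.7 to 98.1 CPM in wild-type pools. Per kb of exon, Layn stood at 56.2% and 47.3% of the Chodl level in the HSA-NRTN males, at 4.87%, 7.72% and 3.73% in the HSA-NRTN females, and at 13.2% to 20.6% in wild-type libraries. The balance of the 2 homologs thus moved in opposite directions in HSA-NRTN males and females relative to wild-type pools; the ratio itself was not tested.

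**Figure D2:**
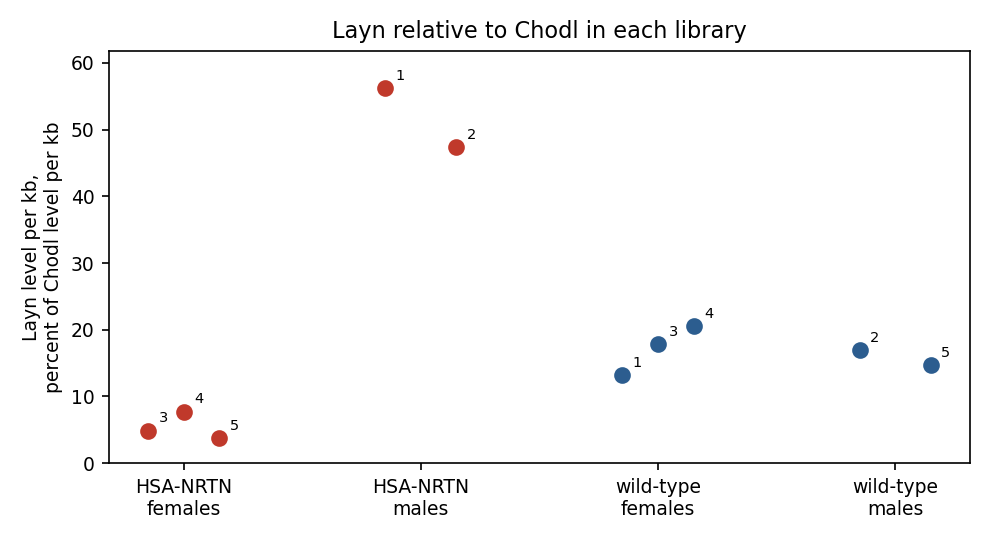
Layn level per kb of exon as a percent of the Chodl level per kb in the same library, on a linear axis from 0, by genotype and sex; points are animals numbered by replicate. The HSA-NRTN males lie at 56.2% and 47.3%, the HSA-NRTN females at 3.73% to 7.72%, and the wild-type libraries between them at 13.2% to 20.6%.

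Chodl is among the most abundant transcripts of these neurons. By CPM it ranked between 91 and 349 of 51912 genes in HSA-NRTN libraries and between 40 and 49 in wild-type libraries. By CPM per kb of exon its median rank was 525 over HSA-NRTN libraries and 137 over wild-type ones. Layn ranked 1131 and 1162 per kb in HSA-NRTN males, 4144 to 6582 in HSA-NRTN females and 835 to 1114 in wild-type libraries.

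Chodl varied little among wild-type animals. This is a description, since the genotype contrast by which Chodl was chosen uses the same wild-type values and favours genes with a small spread within groups. Its coefficient of variation (CV, the SD as a percent of the mean) was 41.5% over HSA-NRTN and 5.95% over wild-type pools. There were 104 genes within 2-fold of its wild-type mean, Chodl itself included. Of these, 0 had a lower CV in wild-type pools, where their median was 24.0%, while 83 had a lower CV in HSA-NRTN pools. The wild-type count of genes with a lower CV stayed at 0 with the authors' size factors, RLE or upper quartile factors, and was 1, 2 and 4 without wild-type replicates 1, 2 and 5. For Layn the CV was 92.9% in HSA-NRTN and 18.4% in wild-type pools. Of 2159 genes within 2-fold of its wild-type mean, Layn itself included, 99.5% and 16.5% had a lower CV in each. For both members these genes were not matched to the HSA-NRTN level. The HSA-NRTN CV of Layn also holds its split by sex, with 10.1 to 21.6 CPM in females and 96.2 and 101 CPM in males.

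Genes with profiles like those of the 2 members were ranked by the root-mean-square (RMS) distance of log2 CPM over the 10 libraries, each gene centred on its mean, among 7392 other genes with a median of at least 50 counts. This is a description, and the genotype difference that led to the choice of Chodl enters it. Nearest to Chodl was Plxdc1, a membrane protein with a plexin domain, at 0.29 log2 units. Next came Dkk3, a secreted protein of the Dickkopf family (0.35), and Hacd2, an enzyme of long-chain fatty acid synthesis (0.36). Rspo2, a secreted activator of Wnt signalling (0.37), and the transcription factor Maf (0.42) followed. Chodl itself varied by 0.91 about its mean, and the median gene lay at 1.04. Hacd2 averaged 39.3 ± 14.7 CPM in HSA-NRTN pools and 78.6 ± 11.7 CPM in wild-type ones (SD, n = 5 each). With profiles centred within genotype, so that the genotype difference is removed, Hacd2 was again nearest (0.16), followed by the ubiquitin ligase gene Hecw1 (0.20), the secreted protein gene Nell1 (0.20), Mtap, an enzyme of methionine salvage (0.22), and Map9, a microtubule-associated protein (0.23). Between 3 and 5 of the first 5 genes were kept with 1 library left out, but 0 to 4 of the second 5, with 0 kept without HSA-NRTN replicate 3.

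Layn was not among the genes most like Chodl. It lay at 1.18 log2 units from Chodl, place 5237 in the order of distance from Chodl, and Chodl held place 264 in the order from Layn. The genes nearest to Layn were farther away than those of Chodl. They were Arhgef25 (0.71), Nrep (0.73), Katnbl1, a katanin-like subunit (0.86), Kcnt2, a sodium-activated potassium channel (0.86), and Calca, which encodes the neuropeptide CGRP (0.87), against 1.39 for the spread of Layn about its own mean. Centred within genotype they were the transcription factor Scx (0.40), Tsc22d4 (0.45), Arhgef25 (0.48), the vesicle GTPase gene Rab3c (0.52) and the glycosyltransferase gene Mgat4b (0.52). With 1 library left out, 1 to 4 of the 5 genes of each order were kept.

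**Figure D3:**
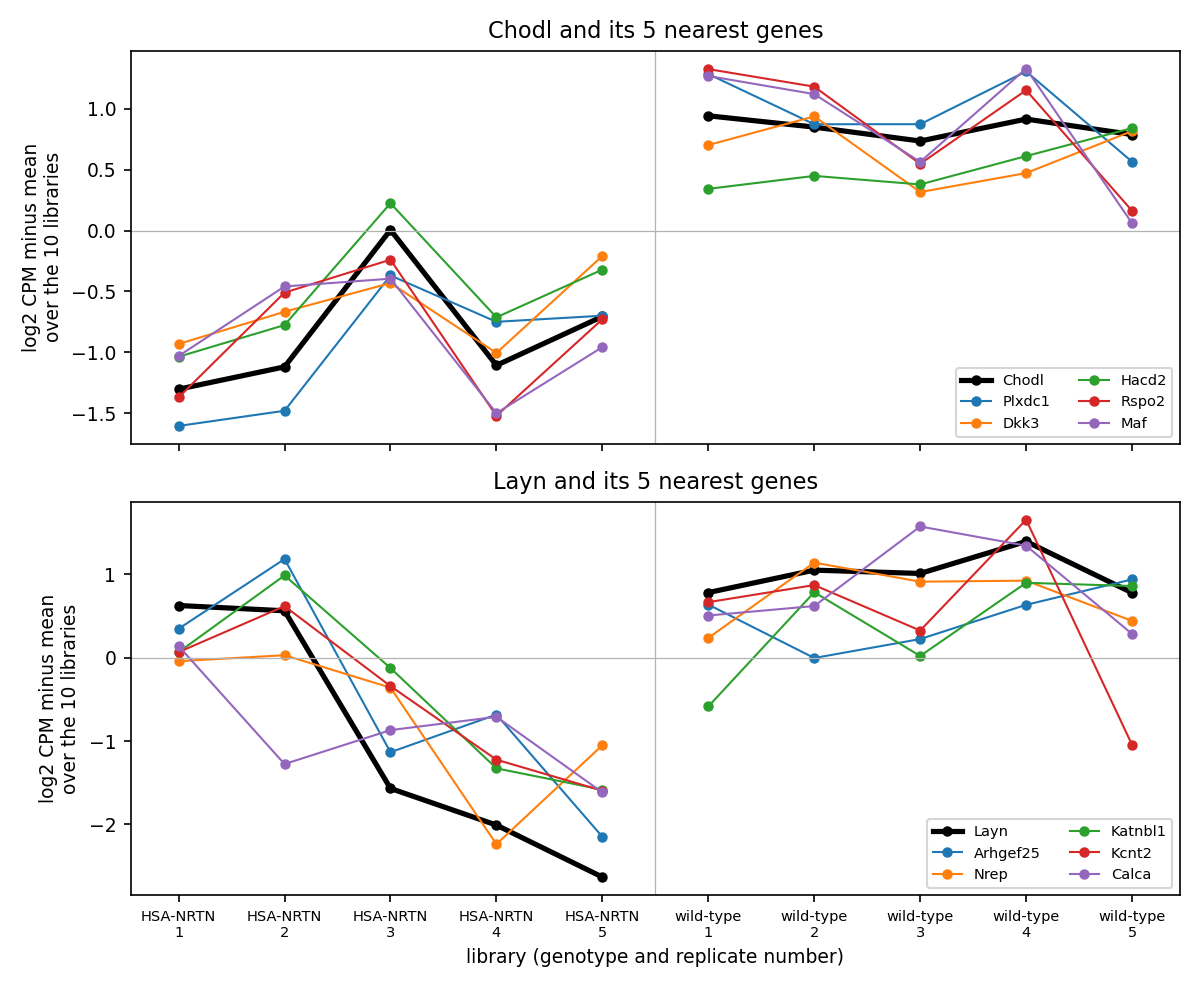
Log2 CPM of Chodl (top) and Layn (bottom) with their 5 nearest genes, each minus its mean over the 10 libraries, with HSA-NRTN libraries left of wild-type; lines only join the points of a gene. Chodl is lower in every HSA-NRTN pool and nearest to wild-type in replicate 3, at 0.01, while Layn is at 0.63 and 0.56 in HSA-NRTN replicates 1 and 2 and at -1.57, -2.01 and -2.63 in replicates 3 to 5.

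Other fast motor neuron markers were mostly lower in HSA-NRTN pools, without passing in edgeR. The lists of related genes, here and below, were chosen with earlier results of these data known. Their signs, medians and p-values are therefore descriptions. Of 6 markers other than Chodl, 5 were tested, all with a negative log2 fold change (median -0.59, against -0.01 over all genes), and 0 passed in edgeR, where 1 gene of 11630 (0.0086%) did, a count that was 0 without wild-type replicate 2, 13 without HSA-NRTN replicate 3 and 2 without HSA-NRTN replicate 1 or 2 or wild-type replicate 3. DESeq2 called 126 genes (0.8%), limma voom 3 (0.0258%) and edgeR with no filter beyond 1 count 81 (0.311%). At an unadjusted p under 0.05 there were 2 of these markers, against 562 genes overall (4.83%), namely Calca and Kcnq5, both of which DESeq2 called (adjusted p = 0.0022 for Calca and 0.038 for Kcnq5). Calca also passed in edgeR with no filter beyond 1 count (adjusted p = 0.000619). Calca had a log2 fold change of -1.69 (SE 0.34, adjusted p = 0.142). Kcnq5, an M-current potassium channel, had one of -2.62 (SE 0.76, adjusted p = 0.518). For both, all HSA-NRTN pools lay below all wild-type pools, as for 70 of 11630 genes (0.602%). Kcnn2, an SK channel, averaged 32.0 ± 6.50 CPM in HSA-NRTN pools and 44.7 ± 14.3 CPM in wild-type ones (SD, n = 5 each). The protease gene Mmp9 averaged 73.0 ± 50.5 CPM in HSA-NRTN and 111 ± 23.5 CPM in wild-type ones. In females alone and males alone, the log2 fold change was -2.20 and -0.87 for Calca and -0.25 and -1.83 for Mmp9. It was -0.36 and -0.60 for Kcnn2, and -2.14 and -6.58 for Kcnq5, whose lowest HSA-NRTN pool was at 0 CPM. Dlk1, the sixth, had too few counts for the test, 47 over HSA-NRTN and 3 over wild-type libraries.

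The 4 slow motor neuron markers had positive log2 fold changes (median 0.93) and 0 passed. Esrrg, an estrogen-related receptor, averaged 197 ± 41.9 CPM in HSA-NRTN pools and 127 ± 41.5 CPM in wild-type ones (SD, n = 5 each, adjusted p = 0.949), and was the only one of the 4 with an unadjusted p under 0.05 (4.83% of all genes). Its relative Esrrb was at 10.2 ± 1.61 and 6.90 ± 4.93 CPM, the vesicle protein gene Sv2a at 74.8 ± 56.6 and 31.5 ± 28.9 CPM, and the SK channel gene Kcnn3 at 23.1 ± 16.3 and 6.402 ± 8.17 CPM, with the HSA-NRTN mean first in each pair and adjusted p of 0.999.

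Chodl and Layn had the highest levels per length of the C-type lectin domain genes in wild-type pools. Of 66 other genes of this family, 9 passed the filter and 57 did not. Per kb of exon, Chodl was at 108 CPM in HSA-NRTN and 330 CPM in wild-type pools, and Layn at 20.3 and 55.0 CPM. Next was Clec2l, a brain-expressed member, at 30.8 CPM per kb in HSA-NRTN and 24.0 in wild-type pools, so that its mean lay above that of Layn in HSA-NRTN pools and below it in wild-type pools. The genotype log2 fold changes of the 9 had a median of -0.30, 3 positive and 6 negative, and 0 passed, with 2 at an unadjusted p under 0.05 (4.83% of all genes). By p the first were Acan, the proteoglycan aggrecan of perineuronal nets (-0.99, SE 0.44), Pkd1, a large membrane protein of the polycystin family (-1.65, SE 0.77), Atrn, the membrane protein attractin (-0.49, SE 0.25), and Clec2l (0.36, SE 0.33), with adjusted p of 0.968 for Acan and 0.999 for the other three.

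**Figure D4:**
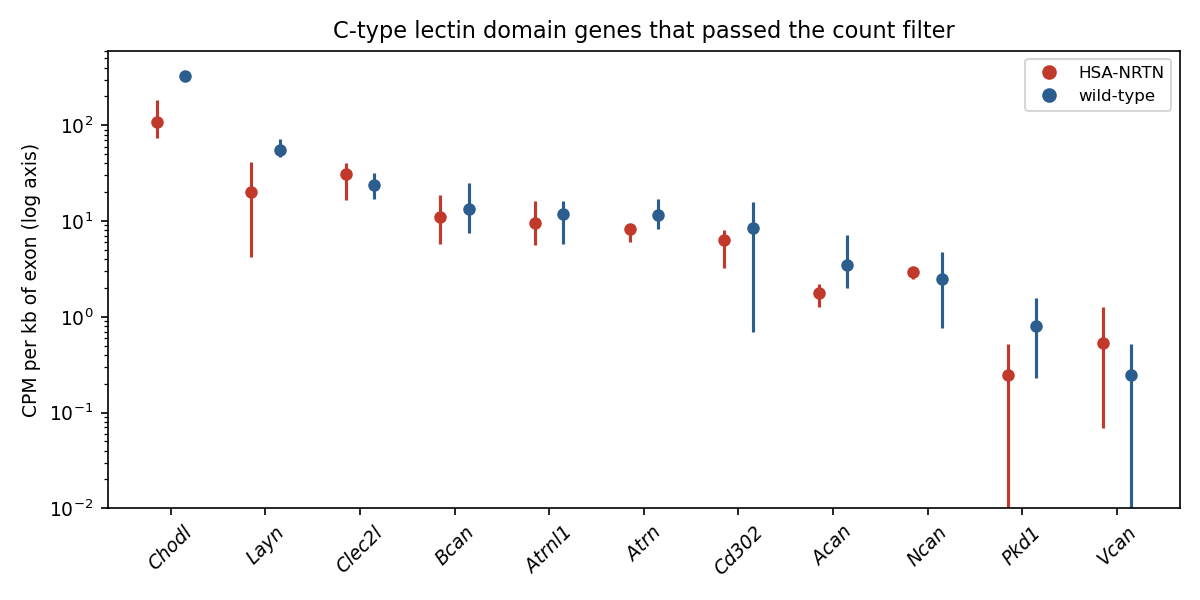
Level per kb of exon of Chodl, Layn and the 9 other C-type lectin domain genes that passed the count filter, on a log axis; points are means and bars the range over 5 libraries, with HSA-NRTN left of wild-type and bars that reach 0 drawn to the bottom edge. Chodl is at 108 CPM per kb in HSA-NRTN and 330 in wild-type pools, and Layn at 20.3 and 55.0.

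The cytoplasmic partners of layilin did not pass either. Of 6, 5 were tested (median log2 fold change -0.07, 1 positive and 4 negative). Rdx, which encodes radixin and alone of the 5 had an unadjusted p under 0.05 (4.83% of all genes), averaged 57.8 ± 14.7 CPM in HSA-NRTN pools and 91.6 ± 25.7 CPM in wild-type ones (SD, n = 5 each, adjusted p = 0.946), and Msn, the related moesin, at 316 ± 60.9 and 238 ± 77.8 CPM (adjusted p = 0.999). Of the list of hyaluronan receptors, binding proteins and enzymes, 7 genes were tested, none of them a receptor. Their median was 0.58, with 4 positive and 3 negative, and 0 passed or had an unadjusted p under 0.05. Tnfaip6, a secreted hyaluronan-binding protein, had a log2 fold change of 2.28 (SE 1.12, adjusted p = 0.999), which was -0.11 without HSA-NRTN replicate 2. Cemip2, a cell surface hyaluronidase, had one of 1.21 (SE 0.67), which was 0.62 without the same library. The hyaluronan receptors of the list had too few counts for the test. Over HSA-NRTN and wild-type libraries, Cd44 had 105 and 0 counts, Hmmr 75 and 14, and Lyve1 65 and 7. Stab1 had 19 and 16 counts, and Stab2 13 and 1. Of the SMN complex, whose loss in spinal muscular atrophy mice alters Chodl, 8 of 9 genes were tested (median -0.26, 1 positive and 7 negative), 0 passed or had an unadjusted p under 0.05, and Gemin2 (-1.38, SE 0.96) and Ddx20 (-0.74, SE 0.70) had the smallest p. Gemin2 was at -0.46 without wild-type replicate 4.

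**Figure D5:**
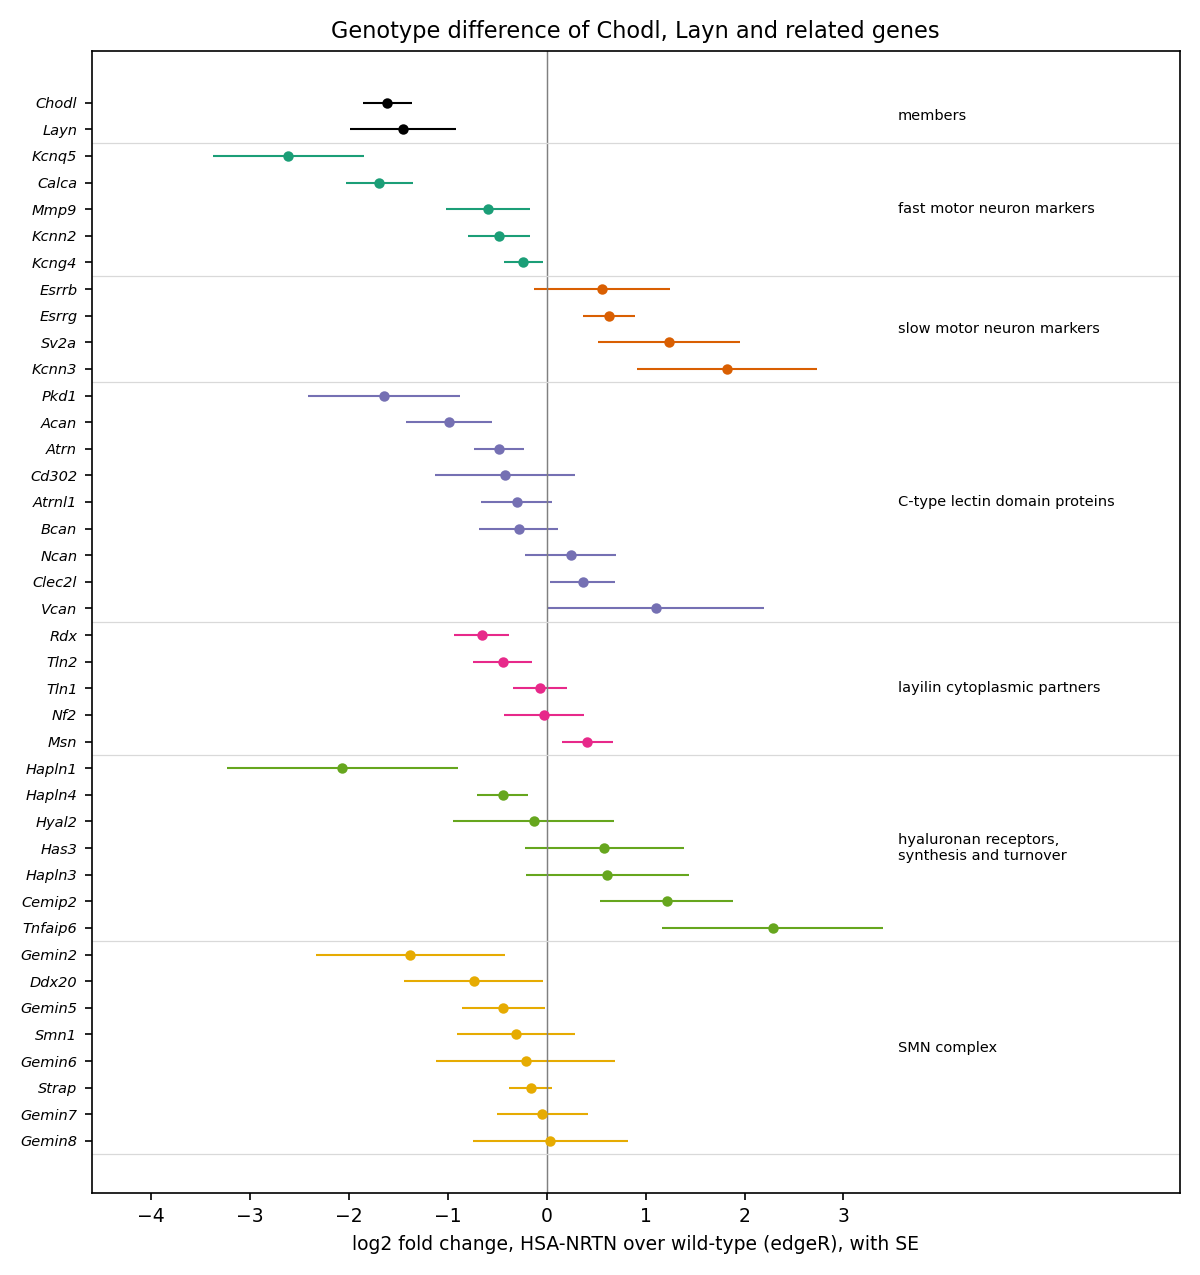
Log2 fold change of HSA-NRTN over wild-type pools with its SE (edgeR) for Chodl, Layn and the tested members of 6 lists; a value below 0 is lower in HSA-NRTN pools. The 5 other fast markers tested lie below 0 and the 4 slow markers above it, and of all list members none passed an adjusted p of 0.05 in edgeR. The lists were chosen with earlier results of these data known.

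The genes beside Chodl and Layn on their chromosomes gave 0 calls. Of the 3 protein-coding genes on each side, Cxadr (0.65, SE 0.90), Tmprss15 (-2.49, SE 0.88) and Ncam2 (-0.06, SE 0.50) could be tested near Chodl, and Sik2 (-1.03, SE 1.16), Ppp2r1b (0.52, SE 0.45) and Alg9 (0.07, SE 0.51) near Layn, in log2 fold change of HSA-NRTN over wild-type pools. The others were too low to test: D16Ertd472e had 3 counts over HSA-NRTN against 20 over wild-type libraries, Btg3 2 against 0, Gm21833 0 against 1, 4833427G06Rik 88 against 61, Gm32742 0 against 57, and Pou2af1 was at 0 in all.

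The pools carried the markers of motor neurons. All 8 had counts, with a summed level of 3433 to 5652 CPM in HSA-NRTN and 2665 to 4223 CPM in wild-type pools. Markers of 11 other cell types were lower in sum. Of those tested, 0 passed for genotype in edgeR, where 1 gene of 11630 (0.0086%) did. Oligodendrocyte markers summed to 270 to 1419 CPM in HSA-NRTN and 201 to 641 CPM in wild-type pools, endothelial markers to 1.28 to 9.73 and 0.344 to 5.51 CPM, and microglial markers to 1.19 to 8.27 and 2.41 to 12.2 CPM. Among these, Cldn5 and Cdh5 were at 0 in HSA-NRTN and Tmem119 in wild-type pools. The 1419 CPM of oligodendrocyte markers was HSA-NRTN replicate 2, a male, and the other HSA-NRTN pools had 270 to 475 CPM. Pericyte and smooth muscle markers summed to 78.4 CPM in that pool. They summed to 5.42 to 8.88 CPM in the other HSA-NRTN pools and 0.198 to 11.2 CPM in wild-type pools. The 1 pericyte gene tested had an unadjusted p under 0.05 for genotype (edgeR, 4.83% of all genes). Lymphocytes, which can carry Layn, were represented by 2 of 4 markers, with Cd8a and Foxp3 at 0 in all libraries. Beside the split of Layn by sex, all 4 inhibitory interneuron markers had counts and summed to 101 and 160 CPM in the HSA-NRTN males, 11.1 to 74.4 CPM in the HSA-NRTN females and 0.688 to 172 CPM in wild-type pools. In wild-type replicates 1 to 5 these inhibitory markers summed to 172, 35.1, 91.0, 0.688 and 73.8 CPM. Layn in the same pools was at 112, 135, 131, 172 and 112 CPM. The 3 markers of somatostatin interneurons summed to 21.6 and 125 CPM in the HSA-NRTN males, 9.34 to 17.3 CPM in the HSA-NRTN females and 1.98 to 12.3 CPM in wild-type pools, where Sst was at 0. Excitatory interneuron markers did not separate the sexes. They summed to 149 and 85.4 CPM in the HSA-NRTN males and 21.4 to 182 CPM in the HSA-NRTN females. In wild-type pools they summed to 0.283 to 300 CPM. Fibroblast markers summed to 47.2 and 10.8 CPM in the HSA-NRTN males and 0.986 to 56.9 CPM in the HSA-NRTN females. In wild-type replicates 1 to 5 the fibroblast markers summed to 11.0, 296, 31.4, 352 and 26.6 CPM. The part of these cells in the Layn values was not tested.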

How the data were processed

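The members, gene lists, motifs and tests were chosen with earlier results of these data known. Per the submitters' processing notes, STAR 2.5.0a, HTSeq and the build GRCm38.p6 were used. The annotation release and strand setting were not stated there, and the kit does not mark strand. The deposited files hold raw counts for 51912 genes, 92 spike-ins and 5 tally entries, of which the last 2 kinds stayed out of library sizes. A deposited table holds a signal, the counts divided by 1 size factor per library. The authors' comparison table, made with DESeq2 per the submitters' processing notes, holds log2 fold changes with SE, a test score and p-values; only its log2 fold changes for Chodl and Layn, with their SE, are given here.

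Genes were kept by filterByExpr (11630) and scaled by TMM, and tested with glmQLFTest of edgeR 4.0.16 (R 4.3.3) for genotype, for sex with genotype in the model, and for their interaction, with Benjamini-Hochberg adjustment and a call under 0.05. DESeq2 1.42.0 and limma 3.58.1 voom were alternatives, with other scalings, filters, covariates and libraries. SEs come from the F statistic. Levels per kb use the exon union of GENCODE M21. Log2 CPM for profiles has a prior count of 2. The rule for names took called members and at most 4 of smallest p from a list (4 of the fast, slow and C-type lists, 2 of the others). It also took the 5 nearest profiles and 3 coding neighbours on each side. Dlk1, Btg4 and the untested hyaluronan receptors were named after their values were seen. Each library is a separate animal, and reads carry no molecular identifiers. Layn rested on 41 to 997 counts per library.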

Additional observations from a re-analysis of the deposited data

Results flagged for a closer look

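In 86 pairs of a named gene and a genotype, each with 5 pools, 7 had 1 pool far from the other four; chance alone flags about 1 group in 20. HSA-NRTN replicate 2, the library with the lowest gene count, was the pool apart in 4 of them: Tnfaip6 at 81.1 CPM, where the remaining HSA-NRTN pools had 1.48 to 5.63 CPM, Cxadr at 43.2 against 2.08 to 12.6, Mgat4b at 54.0 against 5.18 to 18.7 and Cemip2 at 24.9 against 4.58 to 10.4. Wild-type replicate 1 was apart for Acan, at 53.9 CPM where the remaining wild-type pools had 14.97 to 23.8 CPM, and for Tmprss15, at 38.3 against 5.38 to 13.8. Wild-type replicate 5 was apart for Cxadr, at 31.7 CPM against 1.03 to 6.33 CPM. Chodl and Layn were not among these.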

How the results depend on the processing

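No paired analysis was possible because the labels give no replicate numbers shared between the genotypes. The log2 genotype difference of Chodl ran from -1.89 to -1.49 with 1 library left out and was -2.04 in males alone. That of Layn ran from -1.94 to -1.20, and was -2.54 with the run of animal numbers as a covariate, -3.10 in females alone and -0.34 in males alone. The sex difference of Layn passed with no filter beyond 1 count (-1.31, adjusted p = 0.0184), as did its interaction there (-2.71) and in DESeq2 (-2.81); the cause was not tested. Genes called for genotype were 0 to 13 with 1 library left out, 81 with no filter, 126 in DESeq2, 3 in limma voom, 10 with genes detected, 5 with sex and 0 with the run of animal numbers as a covariate, and 0 in females or males alone; for sex they were 1 to 176 with 1 library left out, 315 with no filter, 225 in DESeq2 and 0 in limma voom; for the interaction 0 to 0 with 1 library left out, 35 with no filter and 16 in DESeq2. Signs turned for Esrrb (-0.027) and Clec2l (-0.077) in males alone, Tnfaip6 (-0.11 without HSA-NRTN replicate 2, -0.18 in females alone), Ddx20 (0.026) and Cxadr (-0.37) with HSA-NRTN replicate 2 and wild-type replicate 1 both removed, Ncam2 (0.26 in limma voom, 0.11 with genes detected, 0.25 in females alone) and Alg9 (-0.13 with the run of animal numbers, -0.49 in females alone). With 1 library left out Cxadr ran from -0.25 to 1.95, Tnfaip6 from -0.11 to 2.57, Ncam2 from -0.34 to 0.29 and Alg9 from -0.24 to 0.27. Kcnn3 was at 2.96 without wild-type replicate 4, and Tmprss15 at -3.51 without HSA-NRTN replicate 3 and -1.88 without wild-type replicate 1. Of 763 alternative values, 18 turned sign.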

Other observations

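Tmprss15, the gene of enteropeptidase, a protease known from the gut, has its 3′ end 1.27 kb from that of Chodl on the opposite strand. It had 0, 2, 46, 10 and 12 counts in HSA-NRTN replicates 1 to 5, against 167, 19, 55, 80 and 54 counts in wild-type replicates 1 to 5. HSA-NRTN replicate 3, the pool with the highest Chodl level of its group, also had the highest Tmprss15 count there. The genotype difference of Tmprss15 did not pass in edgeR (log2 fold change -2.49, SE 0.88, unadjusted p = 0.0121, adjusted p = 0.835). Summed over libraries, Tmprss15 had 70 counts for 13532 of Chodl in HSA-NRTN (0.517%) and 375 for 41823 in wild-type pools (0.897%), with a range over libraries of 0% to 0.833% in HSA-NRTN and 0.296% to 1.98% in wild-type pools. The counts carry no strand, and whether these reads come from Chodl transcripts was not tested.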
